A study of Mus musculus with 17 samples.

Results

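The 36 genes described here encode hormones, lipid-droplet proteins, lipases, regulators, transporters and lipid-synthesising enzymes of fat cells. They were chosen by name, with earlier results of these data known. Each gene was followed across 12 mammary tumours of mice and 5 normal mammary samples. A gene was read from a probe set that carried its symbol alone, and 34 of the 36 had one, among 19938 genes measured this way. Cfd, which encodes the fat-cell protease adipsin, and Adrb3, the beta-3 adrenergic receptor, had none and were not analysed here.

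RNA of each sample was hybridised to 1 Affymetrix Mouse Gene 1.0 ST array, and the values are on a log2 scale after robust multi-array averaging (RMA), so a difference of 1 is a doubling. The 7 Rb/p53 MMTV-Cre tumours carried deletions of Rb1, which encodes the retinoblastoma protein, and of Trp53, which encodes p53, made by Cre recombinase under the mouse mammary tumour virus promoter, which is known chiefly for its activity in mammary epithelium. Of these, replicate 1 came from a nulliparous mouse, replicate 2 from a parous mouse, and replicates 3 to 7 are labelled as transplants. The 2 Rb/p53 Ad-Cre tumours lacked the same genes through an adenovirus that carried Cre, labelled Ad-CMVcre, and are labelled as transplants too. In the 3 p53 tumours MMTV-Cre deleted p53 alone. Mice of the Rb/p53 model also gave the 5 normal samples. All samples had a mixed strain background. The labels give no ages, transplant hosts or deleted exons. They do not say whether the 5 normal samples are 5 animals. A p-value here sets a group difference against the scatter of these arrays, which may not be the scatter between animals.

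Rb1 read 9.29 to 9.92 in MMTV-Cre Rb/p53 tumours, 9.37 to 9.84 in Ad-Cre tumours, 9.93, 11.00 and 10.27 in p53 replicates 1 to 3 and 10.93 to 11.50 in normal tissue. One p53 array (replicate 3) is titled as Rb/p53 but carries p53 in its source name, description and tissue, and was treated as p53. Its Rb1 value lay above all 9 Rb/p53 tumours and below all normal samples. Another (p53 replicate 2) differed from the rest as a whole and correlated with the others at r = 0.888 to 0.915, against 0.929 to 0.993 for all other pairs. Its 25th percentile over all probe sets was 6.80, against 6.37 to 6.50 on the other arrays. Where leaving out or moving either array changed a call, that value stands beside the result.

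White fat cells store triglyceride in a large droplet coated by perilipins, release it through a chain of lipases, and secrete adiponectin, leptin and resistin. The nuclear receptor PPARgamma (Pparg) and the factor C/EBPalpha (Cebpa) hold this programme in place. In the mammary gland, ducts and alveoli grow within a fat pad, so tissue taken from a normal gland holds fat cells beside epithelium.

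Promoter windows reaching from 250 bases before to 50 bases after a gene's start were read from RefSeq (GRCm38.p6), which held at least 1 window for 24 of the 36 genes. The TTGCNNAA motif, the core that C/EBP proteins are known to bind, was searched on both strands. It lay in a window of 4 of these 24 genes (16.7%), Lep, Plin1, Cidec and Pparg, against 12.2% of the 27025 genes with a window and 10.8% of all 32851 windows. Those 4 windows are shown, with that of Adipoq, which had the largest fall of the 3 hormone genes in every tumour group and holds no searched motif. Capitals mark TTGCNNAA or its reverse complement. Counted from the start, the first base lies at -55 in Lep, where the motif reads on both strands, at -187 and -58 in Plin1, at -198 in Cidec, and at -215 and -16 in Pparg, the last on the opposite strand.
Lep, chr6:29059971-29060270, plus strand: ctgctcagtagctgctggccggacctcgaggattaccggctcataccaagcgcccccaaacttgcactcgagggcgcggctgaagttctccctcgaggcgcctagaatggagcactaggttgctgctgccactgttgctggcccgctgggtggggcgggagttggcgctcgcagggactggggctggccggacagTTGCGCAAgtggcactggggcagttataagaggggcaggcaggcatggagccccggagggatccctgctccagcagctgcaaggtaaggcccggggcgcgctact
Plin1, chr7:79732727-79733026, minus strand: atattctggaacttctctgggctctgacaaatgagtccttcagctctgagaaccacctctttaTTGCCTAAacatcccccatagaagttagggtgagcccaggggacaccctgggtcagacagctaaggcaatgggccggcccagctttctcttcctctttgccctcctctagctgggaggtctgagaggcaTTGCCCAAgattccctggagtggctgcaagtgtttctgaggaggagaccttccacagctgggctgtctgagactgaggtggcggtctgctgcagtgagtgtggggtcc
Cidec, chr6:113434715-113435014, minus strand: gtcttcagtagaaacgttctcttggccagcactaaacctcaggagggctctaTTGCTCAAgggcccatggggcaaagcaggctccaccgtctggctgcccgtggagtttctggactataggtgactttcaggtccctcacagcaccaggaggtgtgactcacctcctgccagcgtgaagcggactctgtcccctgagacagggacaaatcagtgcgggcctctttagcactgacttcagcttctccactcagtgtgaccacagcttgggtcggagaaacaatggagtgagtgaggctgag
Pparg, chr6:115421816-115422115, plus strand: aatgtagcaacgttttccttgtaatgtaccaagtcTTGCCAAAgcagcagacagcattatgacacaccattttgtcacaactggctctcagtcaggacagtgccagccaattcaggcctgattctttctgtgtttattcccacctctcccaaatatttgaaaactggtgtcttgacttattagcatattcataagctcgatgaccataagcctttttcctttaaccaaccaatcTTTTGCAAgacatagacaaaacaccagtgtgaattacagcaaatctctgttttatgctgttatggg
Adipoq, chr16:23146286-23146585, plus strand: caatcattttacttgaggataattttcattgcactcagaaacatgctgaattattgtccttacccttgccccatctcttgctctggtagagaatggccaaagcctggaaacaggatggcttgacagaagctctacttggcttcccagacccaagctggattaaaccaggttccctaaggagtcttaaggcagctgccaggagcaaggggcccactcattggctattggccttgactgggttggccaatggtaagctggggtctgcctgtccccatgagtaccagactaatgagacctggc
CACGTG, the E-box read by lipogenic factors such as ChREBP, lay in 1 of the 24 genes (4.17%, Lipe), against 8.09% of all genes with a window. The DR1 repeat of AGGNCA with 1 base between the copies, of the type PPARgamma binds with RXR, lay in 0 of them, against 0.451% of genes. TATAAA lay in 4 (16.7%, Acacb, Cebpa, Cyp2e1 and Pparg), against 15.7% of genes. These matches are letters in a window and were not tested for binding.

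Compared with normal tissue, every measured gene of the list was lower in MMTV-Cre Rb/p53 tumours. By limma, a linear model over all genes with Benjamini-Hochberg adjusted p under 0.05, 34 of 34 passed as lower and 0 as higher, whereas over all genes 12.6% passed as lower and 12% as higher. The median difference of the list was -3.99 log2 units, against 0.04 over all genes. In Ad-Cre Rb/p53 tumours 31 of 34 passed as lower and 0 as higher, against 7.09% and 5.32% of all genes, with a median of -4.06 against -0.002 over all genes. In p53 tumours 33 of 34 passed as lower and 0 as higher, against 11.9% and 7.69% of all genes, with a median of -4.01 against 0.09. The list was chosen with earlier results of these data known, so it is no independent set beside all genes. The 3 comparisons share the 5 normal samples. In such bulk RNA, fewer cells of a type and less RNA per cell cannot be told apart.

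For 31 of the 34 genes each of the 12 tumours lay below each of the 5 normal samples, which held for 6.29% of all genes. Cidea, Cebpa and Ppargc1a were the exceptions, each through 1 tumour. Markers of other mammary cells moved too. In MMTV-Cre Rb/p53 tumours 13 of 16 luminal epithelial and 8 of 12 basal epithelial genes were lower than in normal tissue. Over all genes 12.6% were. The mean level of the luminal genes was 8.11 to 9.60 in MMTV-Cre, 8.29 to 9.02 in Ad-Cre and 7.94 to 8.84 in p53 tumours, against 10.53 to 10.68 in normal tissue. That of the basal genes was 7.83 to 9.11, 8.19 to 8.85 and 8.37 to 8.96, against 10.15 to 10.57 in normal tissue. Their part in the result was not tested.

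**Figure D1:**
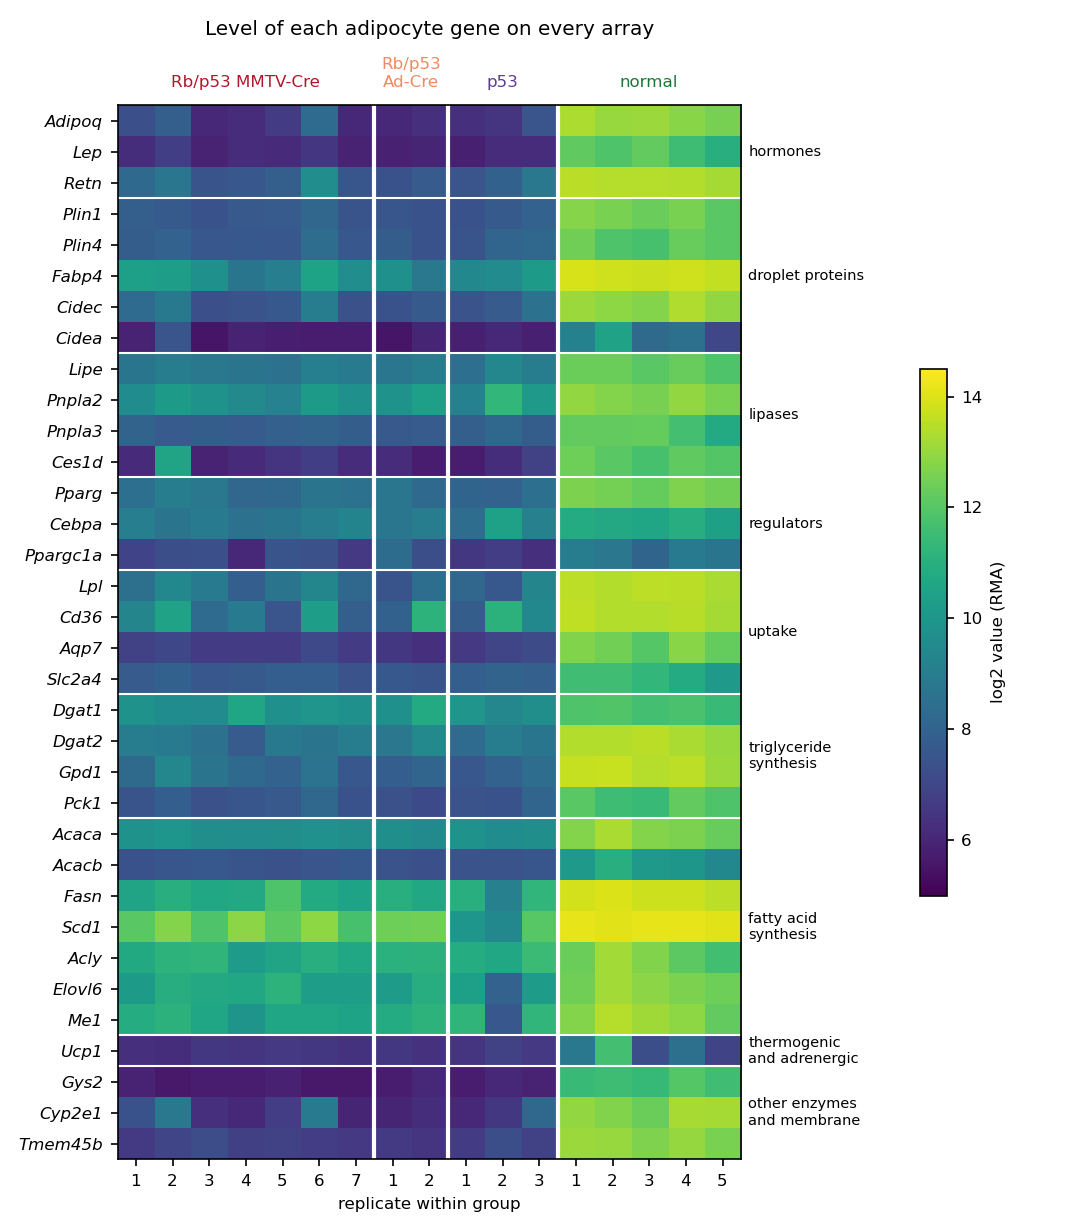
Heat map of the log2 RMA value of the 34 measured genes (rows, by role) on each array (columns, by group and replicate). The normal samples stand out as a bright block against darker tumour columns. For 31 of the 34 genes every tumour lies below every normal sample.

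All 3 hormone genes fell in each tumour group, with a median of -5.52 in MMTV-Cre, -5.86 in Ad-Cre and -5.69 in p53 tumours. Adipoq, which encodes adiponectin, read 6.07 to 8.33 in the 7 MMTV-Cre tumours (median 6.64), 6.11 and 6.33 in Ad-Cre tumours, 6.30, 6.41 and 7.49 in p53 tumours, and 13.31, 13.04, 13.06, 12.81 and 12.54 in normal tissue. The groups did not overlap, and the highest tumour (MMTV-Cre replicate 6) stayed 4.20 units under the lowest normal sample. In 7 tumours, both Ad-Cre tumours included, Adipoq was at or under the 25th percentile of the array's own probe sets. That level is not shown to exceed background, so its differences may be larger than given. Adipoq differed by -6.02 ± 0.38 (SE) in MMTV-Cre tumours, a 64.9-fold lower level (limma adjusted p = 9.11e-09), by -6.73 ± 0.54 in Ad-Cre tumours and by -6.22 ± 0.47 in p53 tumours (adjusted p = 3.8e-07 and 1.58e-07).

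Lep, which encodes leptin, read 5.93 to 6.76 in MMTV-Cre tumours (median 6.20), 5.87 and 5.99 in Ad-Cre tumours, 5.82, 6.20 and 6.20 in p53 tumours, and 12.16, 11.88, 12.21, 11.55 and 11.01 in normal tissue. It was 46.0-fold lower in MMTV-Cre tumours (-5.52 ± 0.20, limma adjusted p = 1.32e-11). All 12 tumours lay close together, and in 10 of them Lep was at or under the 25th percentile of the array's own probe sets, a level not shown to exceed background. A difference that reaches such a level may be larger than its value.

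Retn, which encodes resistin, read 7.46 to 9.66 in MMTV-Cre tumours (median 7.88), 7.38 and 7.72 in Ad-Cre tumours, 7.52, 7.95 and 8.79 in p53 tumours, and 13.52, 13.44, 13.45, 13.40 and 13.23 in normal tissue. MMTV-Cre replicates 6 and 2 and p53 replicate 3 stood highest among tumours, still 3.57 units or more under every normal sample. The difference was -5.25 ± 0.33 in MMTV-Cre tumours (limma adjusted p = 9.34e-09), -5.86 ± 0.47 in Ad-Cre tumours and -5.32 ± 0.41 in p53 tumours.

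Of the droplet proteins all 5 fell in each tumour group, with a median of -4.29 in MMTV-Cre, -4.49 in Ad-Cre and -4.16 in p53 tumours. Plin1, perilipin 1, the coat that controls lipase access, read 7.41 to 8.14 in MMTV-Cre tumours (median 7.70), 7.54 and 7.40 in Ad-Cre tumours, 7.38, 7.67 and 7.99 in p53 tumours, and 12.78, 12.60, 12.31, 12.60 and 12.07 in normal tissue. The tumours lay within a narrow band nearly 4 units below the normal samples (MMTV-Cre difference -4.76 ± 0.15, limma adjusted p = 2.87e-12). Plin4, another perilipin, differed by -4.29 ± 0.18, -4.48 ± 0.25 and -4.16 ± 0.22 in MMTV-Cre, Ad-Cre and p53 tumours.

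Fabp4, the fatty acid carrier of fat cells, read 8.70 to 10.52 in MMTV-Cre tumours (median 9.76), 9.76 and 8.81 in Ad-Cre tumours, 9.43, 9.58 and 10.17 in p53 tumours, and 13.93, 13.81, 13.74, 13.80 and 13.61 in normal tissue. It was 16.1-fold lower in MMTV-Cre tumours (-4.01 ± 0.29, limma adjusted p = 4.82e-08), yet above the array's own median in all 12 tumours. Fabp4 is also known from macrophages and some endothelium. Against 12% of all genes higher and 12.6% lower in MMTV-Cre tumours, 7 of 14 macrophage genes were higher and 1 lower. Their mean was 10.58 to 11.74 in MMTV-Cre, 10.76 to 11.44 in Ad-Cre and 11.11 to 12.43 in p53 tumours, against 10.20 to 10.63 in normal tissue. Their part in its level was not tested.

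Cidec, which enlarges droplets in white fat, read 7.32 to 8.97 in MMTV-Cre tumours (median 7.61), 7.40 and 7.70 in Ad-Cre tumours, 7.44, 7.73 and 8.58 in p53 tumours, and 13.08, 12.89, 12.75, 13.36 and 12.97 in normal tissue. It was 32.7-fold lower in MMTV-Cre tumours (-5.03 ± 0.30, adjusted p = 6.17e-09). Cidea, its relative that is abundant in brown fat, fell less (-2.67 ± 0.45, adjusted p = 0.000398) and varied more in normal tissue, where it read 7.02 to 10.46. In 11 of 12 tumours Cidea was at or under the array's 25th percentile, while MMTV-Cre replicate 2 read 7.49 and overlapped the lowest normal sample. Its Ad-Cre difference of -2.94 ± 0.64 did not pass without Ad-Cre replicate 1 (-2.72, adjusted p = 0.077).

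Lipase genes fell in all 3 tumour groups (4 of 4 each, median -3.67 in MMTV-Cre, -3.73 in Ad-Cre and -3.56 in p53 tumours). Lipe, hormone-sensitive lipase, read 8.59 to 9.12 in MMTV-Cre tumours (median 8.80), 8.71 and 9.02 in Ad-Cre tumours, 8.48, 9.41 and 8.98 in p53 tumours, and 12.38, 12.35, 12.07, 12.29 and 11.89 in normal tissue. Lipe was 10.4-fold lower in MMTV-Cre tumours (-3.38 ± 0.15, limma adjusted p = 1.24e-10). Pnpla2, which encodes the first lipase of the chain, ATGL, had a smaller difference (-3.00 ± 0.27 in MMTV-Cre, -2.66 ± 0.39 in Ad-Cre and -2.58 ± 0.34 in p53 tumours). One tumour, p53 replicate 2, read 11.29 for Pnpla2, against 9.18 to 10.36 in the other 11 and 12.56 or more in normal tissue.

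Pnpla3, a related acyltransferase and lipase, differed by -3.97 ± 0.20 in MMTV-Cre tumours and was tight among the 12 tumours, 7.67 to 8.17. Ces1d, a carboxylesterase that acts on stored triglyceride, behaved differently in 1 tumour. It read 10.55 in MMTV-Cre replicate 2 but 5.90 to 6.75 in the other 6 MMTV-Cre tumours, 5.74 to 6.88 in Ad-Cre and p53 tumours, and 11.75 to 12.41 in normal tissue. Its difference was -5.20 ± 0.61 in MMTV-Cre tumours (adjusted p = 1.26e-05). In 9 tumours Ces1d was at or under the array's 25th percentile.

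The regulators fell in 3 of 3 genes in MMTV-Cre and p53 tumours and 2 of 3 in Ad-Cre tumours, and Pparg had a larger difference than its partner Cebpa. Pparg, the factor fat-cell identity depends on, read 8.13 to 9.01 in MMTV-Cre tumours (median 8.56), 8.74 and 8.25 in Ad-Cre tumours, 8.04, 7.98 and 8.48 in p53 tumours, and 12.64, 12.50, 12.25, 12.65 and 12.43 in normal tissue. The difference of Pparg was -3.95 ± 0.15 in MMTV-Cre, -4.00 ± 0.22 in Ad-Cre and -4.33 ± 0.19 in p53 tumours (limma adjusted p = 3.97e-11, 6.04e-09 and 3.61e-10). It was above the array's median in all 12 tumours, though in p53 replicate 2 only narrowly (7.98 against 7.83). MMTV-Cre replicates 4 and 5, Ad-Cre replicate 2 and p53 replicates 1 and 2 lay under the array's 60th percentile. By definition 50% of all probe sets lie above the median, so this is no sign of retained signal.

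Cebpa read 8.56 to 9.29 in MMTV-Cre tumours (median 8.90), 8.72 and 9.03 in Ad-Cre tumours, 8.38, 10.43 and 9.13 in p53 tumours, and 10.84, 10.73, 10.62, 10.93 and 10.40 in normal tissue. Only p53 replicate 2 overlapped the normal samples. The differences were -1.83 ± 0.25, -1.83 ± 0.36 and -1.39 ± 0.31 in MMTV-Cre, Ad-Cre and p53 tumours (adjusted p = 5.8e-05, 0.00296 and 0.00497). Without p53 replicate 1 the p53 difference was -0.93 (adjusted p = 0.0295). C/EBPalpha is also known from myeloid cells. The mean of 14 macrophage markers was 12.43 in p53 replicate 2, the highest of the 12 tumours (10.58 to 11.89 in the rest). The part of those cells in the value was not tested.

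Ppargc1a, the coactivator PGC-1alpha of mitochondrial genes, read 6.10 to 7.45 in MMTV-Cre tumours (median 7.29), 8.37 and 7.27 in Ad-Cre tumours, 6.53, 6.74 and 6.29 in p53 tumours, and 9.02, 8.76, 8.08, 8.92 and 8.69 in normal tissue. Ad-Cre replicate 1 lay above the lowest normal sample. Ppargc1a fell in MMTV-Cre (-1.69 ± 0.25, adjusted p = 0.000127) and p53 tumours (-2.17 ± 0.31, adjusted p = 0.000142), and did not pass in Ad-Cre tumours (-0.87 ± 0.36, adjusted p = 0.134). Without Ad-Cre replicate 1 or 2 that difference was -1.42 or -0.32 (adjusted p = 0.0649 and 0.843). A second probe set of the gene also placed the Ad-Cre tumours nearest to normal tissue, with 4.84 to 6.15 in MMTV-Cre, 6.06 to 7.01 in Ad-Cre, 4.79 to 5.26 in p53 tumours and 6.73 to 7.56 in normal tissue.

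Uptake genes fell in each tumour group (4 of 4, median -4.61 in MMTV-Cre, -4.70 in Ad-Cre and -4.54 in p53 tumours). Lpl, lipoprotein lipase, which frees fatty acids from circulating triglyceride, read 7.84 to 9.45 in MMTV-Cre tumours (median 8.66), 7.47 and 8.42 in Ad-Cre tumours, 8.12, 7.63 and 9.32 in p53 tumours, and 13.56, 13.41, 13.56, 13.53 and 13.29 in normal tissue. It was 27.1-fold lower in MMTV-Cre tumours (-4.76 ± 0.30, adjusted p = 1.19e-08). The tumours highest in Lpl were MMTV-Cre replicates 2 and 6 and p53 replicate 3, also the highest in Adipoq and Retn.

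Cd36, the fatty acid translocase, had the widest spread of the uptake genes. It read 7.51 to 10.47 in MMTV-Cre tumours (median 8.93), 7.95 and 11.15 in Ad-Cre tumours, 7.80, 11.11 and 9.45 in p53 tumours, and 13.61, 13.42, 13.39, 13.48 and 13.23 in normal tissue. Both the Ad-Cre and the p53 group held a tumour above 11 and one below 8. The difference was -4.45 ± 0.64 in MMTV-Cre (adjusted p = 9.2e-05), -3.88 ± 0.91 in Ad-Cre (0.0105) and -3.97 ± 0.80 in p53 tumours (0.00225). Without Ad-Cre replicate 1 the Ad-Cre difference was -2.28 and did not pass (adjusted p = 0.239). Cd36 is also known from macrophages and from endothelium, whose markers had a mean of 9.30 to 10.06 in MMTV-Cre, 9.69 to 9.92 in Ad-Cre and 8.55 to 9.81 in p53 tumours, against 10.03 to 10.48 in normal tissue, and the part of these cells was not tested.

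Aqp7, the glycerol channel of fat cells, read 6.63 to 7.10 in MMTV-Cre tumours (median 6.70), 6.54 and 6.30 in Ad-Cre tumours, 6.59, 6.98 and 7.20 in p53 tumours, and 12.72, 12.48, 11.99, 12.80 and 12.24 in normal tissue. No tumour reached its array's median, and the gap between the groups was 4.79 units (MMTV-Cre difference -5.64 ± 0.15, adjusted p = 4.89e-13). Slc2a4, the insulin-regulated glucose transporter GLUT4, read 7.44 to 7.95 in MMTV-Cre tumours (median 7.74), 7.63 and 7.46 in Ad-Cre tumours, 7.83, 8.04 and 7.91 in p53 tumours, and 11.57, 11.59, 11.28, 10.86 and 10.10 in normal tissue. Its difference was -3.36 ± 0.20 in MMTV-Cre tumours (adjusted p = 6.46e-09). GLUT4 is a skeletal muscle protein too, and muscle markers differed among the normal samples, as given at the end.

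Triglyceride synthesis genes fell in each tumour group (4 of 4), and the 2 acyltransferases of the last step differed in size. Dgat2 read 7.72 to 8.99 in MMTV-Cre tumours (median 8.85), 8.75 and 9.47 in Ad-Cre tumours, 8.31, 9.003 and 8.70 in p53 tumours, and 13.39, 13.42, 13.50, 13.30 and 13.03 in normal tissue. It was 25.1-fold lower in MMTV-Cre tumours (-4.65 ± 0.21, limma adjusted p = 1.56e-10). Dgat1 differed by -1.84 ± 0.19 there, by -1.44 ± 0.27 in Ad-Cre tumours and by -2.04 ± 0.24 in p53 tumours, and in Ad-Cre replicate 2 it came within 0.61 units of normal tissue (10.80 against 11.41 or more). Without Ad-Cre replicate 1 its difference in Ad-Cre tumours was -0.93 and did not pass (adjusted p = 0.0875).

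Gpd1, which makes the glycerol phosphate backbone, differed by -5.08 ± 0.25 in MMTV-Cre, -5.50 ± 0.35 in Ad-Cre and -5.49 ± 0.31 in p53 tumours. Pck1, the enzyme of glyceroneogenesis, read 7.34 to 8.17 in MMTV-Cre tumours (median 7.55), 7.37 and 7.13 in Ad-Cre tumours, 7.42, 7.40 and 8.10 in p53 tumours, and 12.09, 11.56, 11.41, 12.21 and 11.87 in normal tissue. The tumours did not reach within 3 units of normal tissue (MMTV-Cre difference -4.20 ± 0.18, adjusted p = 7.15e-11).

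**Figure D2:**
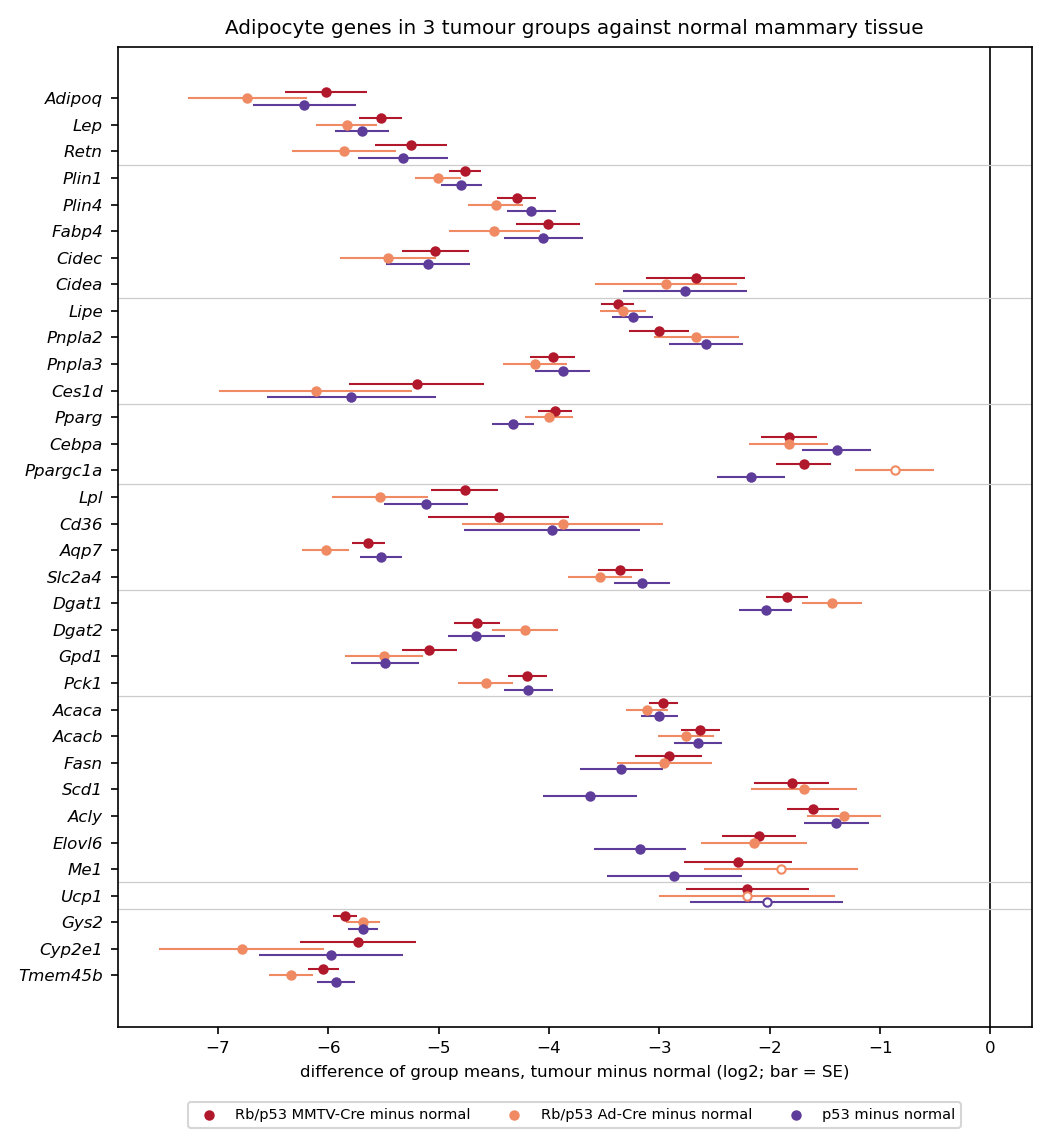
Difference of group means, tumour minus normal, in log2 units for each measured gene, with its standard error as a bar; colours mark the 3 tumour groups, and filled points passed the adjusted threshold. All points lie left of 0, and the 4 open points are Ppargc1a and Me1 in Ad-Cre tumours and Ucp1 in Ad-Cre and p53 tumours.

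Fatty acid synthesis genes had a smaller median difference than every group above but the regulators, and all but Acacb and Me1 were above the array's median in all 12 tumours. Their median difference was -2.29 in MMTV-Cre (7 of 7 lower), -2.14 in Ad-Cre (6 of 7) and -3.00 in p53 tumours (7 of 7). These enzymes also serve dividing cells and epithelium. Fasn, fatty acid synthase, read 10.52 to 11.87 in MMTV-Cre tumours (median 10.75), 10.97 and 10.70 in Ad-Cre tumours, 10.95, 9.13 and 11.26 in p53 tumours, and 13.86, 13.996, 13.77, 13.77 and 13.55 in normal tissue. It was 7.55-fold lower in MMTV-Cre tumours (-2.92 ± 0.30, limma adjusted p = 3.09e-06).

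Scd1, which desaturates stearate to oleate, had the largest difference of the 34 genes between MMTV-Cre Rb/p53 and p53 tumours. It read 12.07, 12.74, 11.87, 12.83, 12.10, 12.87 and 11.75 in MMTV-Cre replicates 1 to 7, 12.40 and 12.46 in Ad-Cre tumours, 9.998, 9.44 and 12.04 in p53 tumours, and 14.14, 14.07, 14.16, 14.15 and 14.07 in normal tissue. Against normal tissue Scd1 differed by -1.80 ± 0.34 in MMTV-Cre (adjusted p = 0.000994), -1.69 ± 0.48 in Ad-Cre (0.0315) and -3.63 ± 0.42 in p53 tumours (1.76e-05). Replicates 1 and 2 of the p53 tumours lay below every Rb/p53 tumour. The Ad-Cre call was narrow: without Ad-Cre replicate 1 or 2 the difference was -1.66 or -1.72 (adjusted p = 0.163 and 0.151), and without any one of normal replicates 1 to 4 the adjusted p was 0.0507 to 0.0542.

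Acaca, acetyl-CoA carboxylase 1, was even among the tumours. It read 9.65 to 9.98 in MMTV-Cre tumours (median 9.69), 9.72 and 9.52 in Ad-Cre tumours, 9.84, 9.64 and 9.72 in p53 tumours, and 12.73, 13.29, 12.74, 12.62 and 12.28 in normal tissue. The 12 tumours spanned under 1 unit, and the MMTV-Cre difference was -2.97 ± 0.13 (adjusted p = 1.44e-10). Acacb, the carboxylase that restrains mitochondrial fat burning, differed by -2.63 ± 0.18 and reached the array's median in no tumour.

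Acly, which makes cytosolic acetyl-CoA, had the smallest MMTV-Cre difference of all 34 genes, -1.61 ± 0.24 (adjusted p = 0.000116). Its highest tumour, p53 replicate 3 at 11.46, lay 0.18 units under the lowest normal sample. In Ad-Cre tumours Acly differed by -1.33 ± 0.34 (adjusted p = 0.0169) and did not pass without Ad-Cre replicate 1 or 2 (adjusted p = 0.113 and 0.104). Elovl6, the elongase, differed by -2.10 ± 0.34 in MMTV-Cre, -2.14 ± 0.48 in Ad-Cre and -3.18 ± 0.42 in p53 tumours, and the Ad-Cre call was lost without Ad-Cre replicate 1 (-1.80, adjusted p = 0.112). Me1, malic enzyme, a source of NADPH, differed by -2.29 ± 0.49 in MMTV-Cre (adjusted p = 0.00268) and -2.86 ± 0.61 in p53 tumours (0.00346), and did not pass in Ad-Cre tumours (-1.90 ± 0.70, adjusted p = 0.0907). The low p53 means of Elovl6 and Me1 came with replicate 2, which read 7.98 and 7.56, against 10.18 or more and 9.90 or more in the other 11 tumours. Without p53 replicate 2 the Me1 difference was -1.64 in p53 tumours (adjusted p = 0.00132) and still -1.90 in Ad-Cre tumours, where it then passed (adjusted p = 0.000502). In Ad-Cre tumours it also passed with array weights and with only the compared arrays in the fit (adjusted p = 0.00402 and 0.00296).

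**Figure D3:**
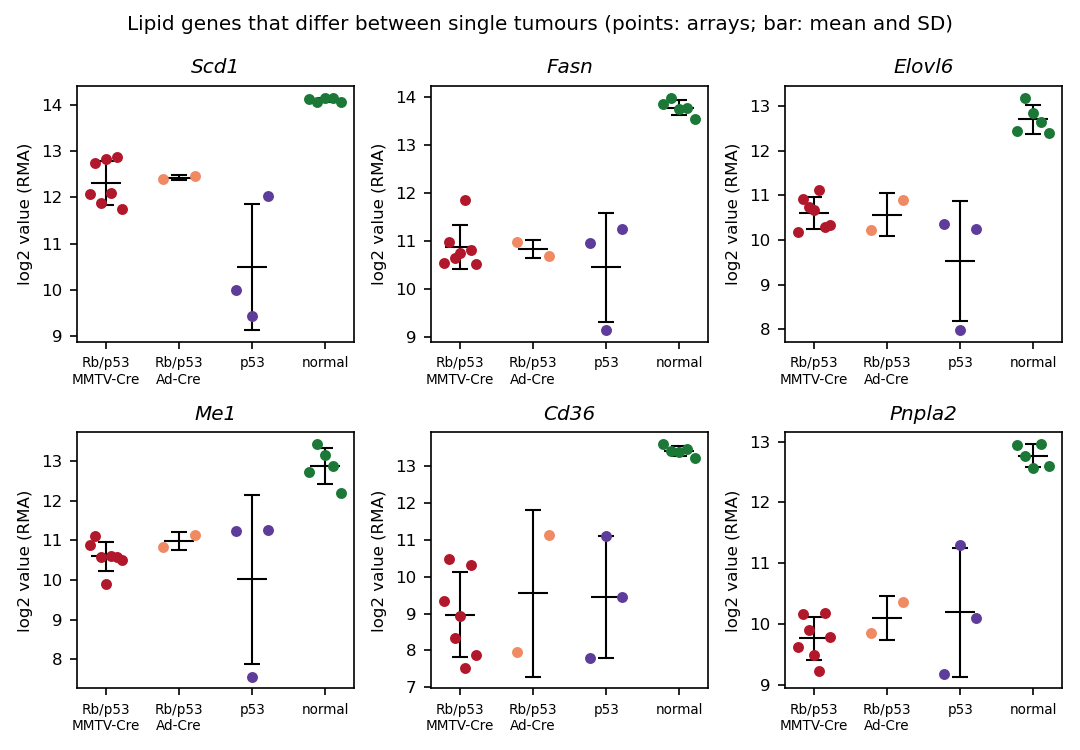
Log2 RMA values of Scd1, Fasn, Elovl6, Me1, Cd36 and Pnpla2 by group; points are arrays, and the bar shows mean and SD (n = 7, 2, 3 and 5). Scd1 is lower in 2 of the 3 p53 tumours than in every Rb/p53 tumour, and 1 p53 tumour lies far below the others in Fasn, Elovl6 and Me1 but highest in Pnpla2.

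Ucp1, the uncoupling protein of brown and beige fat, read 6.26 to 6.59 in MMTV-Cre tumours (median 6.47), 6.54 and 6.34 in Ad-Cre tumours, 6.44, 6.84 and 6.57 in p53 tumours, and 8.80, 11.68, 7.29, 8.52 and 6.94 in normal tissue. All tumours lay below all normal samples, by 0.10 units at the closest. The difference of -2.21 ± 0.56 passed in MMTV-Cre tumours (adjusted p = 0.00852) but not in Ad-Cre (-2.20 ± 0.80, adjusted p = 0.0855) or p53 tumours (-2.03 ± 0.70, adjusted p = 0.0516). Without normal replicate 2 the differences in Ad-Cre and p53 tumours were -1.45 and -1.27, and both passed (adjusted p = 0.0251 and 0.018). Both passed without normal replicate 5 as well (-2.63 and -2.45, adjusted p = 0.0331 and 0.0174), and the p53 difference without normal replicate 3 (-2.37, adjusted p = 0.0302). Without normal replicate 2 the MMTV-Cre difference was -1.45 and passed (adjusted p = 0.00162). The p53 difference passed under 4 other settings as well, with adjusted p = 0.0499 (robust variance trend), 0.046 (low genes left out), 0.0426 (quantile normalisation) and 0.0463 (cyclic loess).

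Of the remaining 3 genes, Tmem45b and Gys2 had the widest gaps between the highest tumour and the lowest normal sample of all 34, 5.32 and 5.29 units. Tmem45b, which encodes a transmembrane protein, read 6.56 to 7.26 in MMTV-Cre tumours (median 6.81), 6.60 and 6.48 in Ad-Cre tumours, 6.66, 7.29 and 6.89 in p53 tumours, and 13.08, 13.05, 12.66, 12.98 and 12.61 in normal tissue. It was 66.0-fold lower in MMTV-Cre tumours (-6.04 ± 0.14, limma adjusted p = 7.55e-14). Gys2, known as the liver isoform of glycogen synthase, differed by -5.85 ± 0.11 and was at or under the array's 25th percentile in all 12 tumours. Cyp2e1, a cytochrome P450, differed by -5.73 ± 0.52, -6.79 ± 0.75 and -5.97 ± 0.65 in MMTV-Cre, Ad-Cre and p53 tumours, and ranged from 5.98 to 8.94 among the 12 tumours.

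Residual signal was read as a tumour value above the median of all probe sets on its own array. By definition 50% of all probe sets on an array lie above this median, so a count near that share is no sign of retained signal. The share over the 19938 genes was not counted for any number in this paragraph. Of the 34 genes, MMTV-Cre replicates 1 to 7 had 21, 24, 17, 15, 18, 25 and 16 above the median, the Ad-Cre tumours 17 and 16, the p53 tumours 17, 18 and 24, and the normal samples 34, 34, 33, 34 and 32. In all 12 tumours, 11 genes were above it: Fabp4, Lipe, Pnpla2, Pparg, Cebpa, Dgat1, Acaca, Fasn, Scd1, Acly and Elovl6. No tumour was above it for 7 genes, Lep, Cidea, Aqp7, Acacb, Ucp1, Gys2 and Tmem45b. The other 16 were above it in some tumours. With the 60th percentile as the bound the counts were 15, 20, 15, 12, 13, 19 and 13 in MMTV-Cre replicates 1 to 7, 14 and 13 in Ad-Cre tumours and 11, 11 and 17 in p53 tumours, so that MMTV-Cre replicate 1 then counted as many as replicate 3.

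The tumours that kept most signal can be seen in 9 genes best known from fat cells (Adipoq, Lep, Retn, Plin1, Plin4, Fabp4, Cidec, Lipe and Aqp7). Of these, Fabp4 is also known from macrophages, and Lipe was highest in p53 replicate 2, the tumour with the highest macrophage mean. That tumour was the highest of the 12 for 8 of the 34 genes, and the part of macrophages was not tested. The mean of the 9 genes differed from the mean of the normal samples by -4.15 in MMTV-Cre replicate 6, -4.42 in replicate 2, -4.50 in p53 replicate 3, -4.72 in MMTV-Cre replicate 1 and -4.90 in p53 replicate 2. In the other 7 tumours it was -5.14 to -5.30. With cyclic loess scaling p53 replicate 2 was at -4.72 and MMTV-Cre replicate 1 at -4.79, so their order changed. Of the 9 genes, all 9 ranked among the 4 highest tumours in MMTV-Cre replicate 6, 8 in MMTV-Cre replicate 2, 8 in p53 replicate 3 and 6 in MMTV-Cre replicate 1. These 4 tumours comprise the nulliparous, the parous and 1 transplanted MMTV-Cre tumour and the p53 tumour with conflicting labels.

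Single genes show the same tumours with different contrast. Adipoq is among the 9 genes by which they were ranked, so its order is not separate support. Cyp2e1 and Car3 lie outside those 9, but other fat-cell genes outside them did not follow, so they are no separate support either. Adipoq read 8.33 and 7.88 in MMTV-Cre replicates 6 and 2, above the array medians of 7.81 and 7.74, and 7.49 in p53 replicate 3 and 7.30 in MMTV-Cre replicate 1, under medians of 7.77 and 7.75. It was 6.07 to 6.64 in the other 8 tumours, in 7 of them at or under the array's 25th percentile. Cyp2e1 read 8.94, 8.82, 8.16 and 7.38 in MMTV-Cre replicates 6 and 2, p53 replicate 3 and MMTV-Cre replicate 1, against 5.98 to 6.73 in the other 8. Car3, carbonic anhydrase 3, an abundant fat-cell and muscle enzyme outside the list of 36, read 11.85, 11.20, 11.60 and 10.89 in these 4 tumours and 10.15 in MMTV-Cre replicate 5, against 6.91 to 8.69 in the other 7 and 13.97 to 14.16 in normal tissue.

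**Figure D4:**
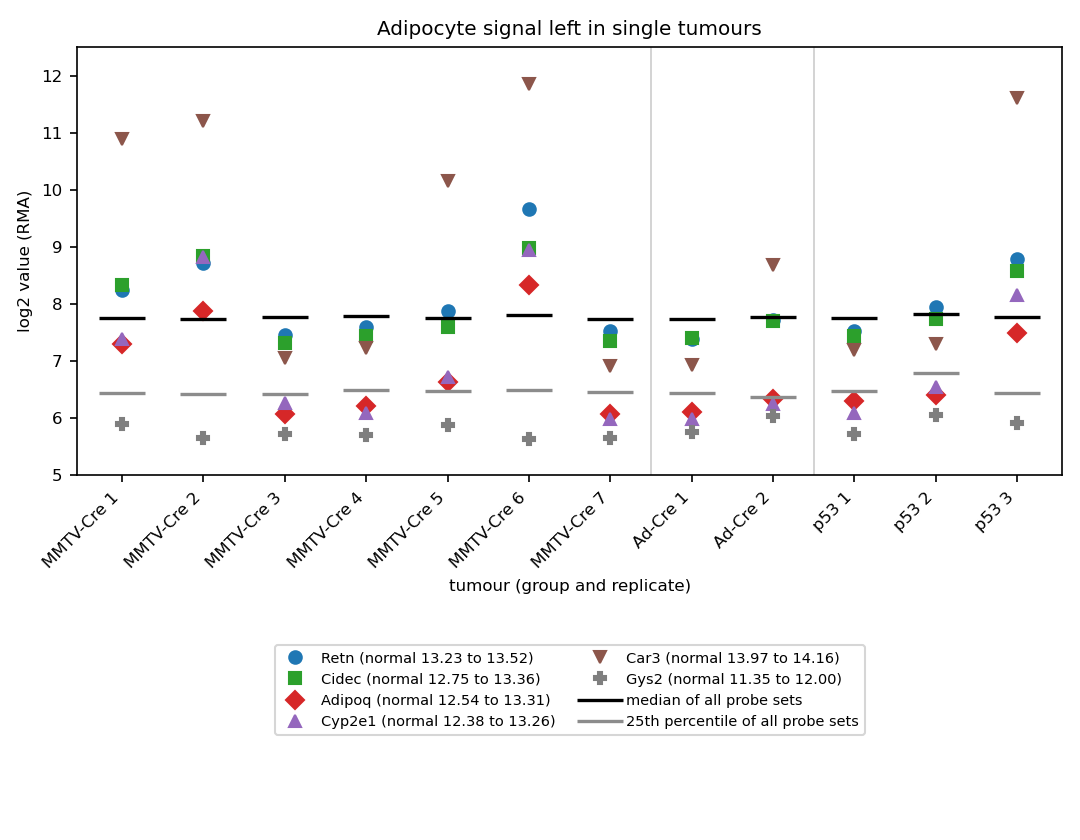
Log2 RMA values of Retn, Cidec, Adipoq, Cyp2e1, Car3 and Gys2 in each of the 12 tumours, with the median (black bar) and 25th percentile (grey bar) of all probe sets on that array; the legend gives the range in normal tissue. MMTV-Cre replicates 1, 2 and 6 and p53 replicate 3 stand higher in Retn, Cidec, Adipoq, Cyp2e1 and Car3 but not in Gys2, which lies under the 25th percentile in all 12. Retn, Cidec and Adipoq belong to the genes by which these tumours were ranked. Other fat-cell genes, such as Rbp4 and Sncg (not shown), did not follow.

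Some genes did not follow these tumours. Cd36 was highest in Ad-Cre replicate 2 and p53 replicate 2, Pnpla2, Lipe and Cebpa in p53 replicate 2, and Ppargc1a in Ad-Cre replicate 1. Ces1d and Cidea stood high in MMTV-Cre replicate 2 and not in replicate 6. Fat-cell genes outside the list were mixed. Rbp4 was highest in MMTV-Cre replicate 3 (9.63) and Ad-Cre replicate 1 (9.12), against 7.35 in MMTV-Cre replicate 6 and 7.20 in p53 replicate 3. Sncg was highest in MMTV-Cre replicate 4 (9.67), while Hp was highest in MMTV-Cre replicates 2 and 6 (10.69 and 10.11). How many of them followed was not counted. The mean of 10 milk protein genes was 9.83, 11.40, 9.18 and 10.41 in MMTV-Cre replicates 6 and 2, p53 replicate 3 and MMTV-Cre replicate 1, against 6.94 to 10.69 in the other 8 tumours. The mean of 16 luminal genes was 9.17, 9.39, 8.84 and 8.79 in those 4, against 7.94 to 9.60 in the other 8. MMTV-Cre replicate 2 also had the highest mean of 2 red-cell genes (9.73, against 7.75 to 8.61). The skeletal muscle mean was 7.05 to 7.66 in the tumours. The part of these cells in the residual signal was not tested.

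Between the tumour groups no gene of the list passed the adjusted threshold. MMTV-Cre Rb/p53 against p53 tumours gave 0 of 34 calls by limma on the 12 tumour arrays, where 0.00502% of all genes passed, and 2 of 34 at an unadjusted p under 0.05, where 16.3% of all genes did. These were Scd1, at 1.83 ± 0.47 units higher in MMTV-Cre tumours (unadjusted p = 0.00217, adjusted p = 0.182), and Elovl6, at 1.08 ± 0.44 (0.032 and 0.282). Without p53 replicate 2 the Elovl6 difference was 0.30 (adjusted p = 0.84). The list's median difference was 0.04, against -0.03 over all genes. Adipoq differed by 0.20 ± 0.50.

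Scd1 passed when p53 replicate 3 was left out (2.60, adjusted p = 0.0128) or moved to the Rb/p53 tumours as its title says (2.56, adjusted p = 0.00842). It passed as well with all 17 arrays in the fit (1.83, adjusted p = 0.0456). In its values given above, p53 replicate 3 lay within the range of the Rb/p53 tumours.

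Ad-Cre against MMTV-Cre Rb/p53 tumours gave 0 of 34 calls as well, where 0.00502% of all genes passed. At an unadjusted p under 0.05 there was 1 of 34, where 2.07% of all genes passed, Ppargc1a at 0.82 ± 0.36 (unadjusted p = 0.0428, adjusted p = 1). Of the 34 genes 23 had a negative difference, and the list's median was -0.15, against -0.02 over all genes. All 3 hormone genes and all 5 droplet genes were negative, with medians of -0.61 and -0.27, and none passed. Negative too were 2 of 4 lipase, 2 of 4 triglyceride synthesis and 4 of 7 fatty acid synthesis genes. Genes read in the same 2 tumours are not separate observations. How many of all genes were negative was not counted. The standard errors were 0.11 to 1.02 units (median 0.34), under 0.5 for 26 of the 34 genes and largest for Cd36.

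Transplanted against other MMTV-Cre Rb/p53 tumours (5 against 2) also gave 0 of 34 calls, where 0.0251% of all genes passed. The list's median difference was -0.18, against 0.03 over all genes, and 27 of 34 had a negative sign. The share of negative signs over all genes was not counted, and genes read in the same tumours are not separate observations. The 2 other tumours, MMTV-Cre replicates 1 and 2, are among the 4 named above for residual signal. Of the 34, 4 had an unadjusted p under 0.05, Acaca, Cidea, Me1 and Ucp1, where 7.92% of all genes did, with differences of -0.23, -0.97, -0.56 and 0.22 (adjusted p = 0.61 to 0.624). Adipoq read 6.07, 6.22, 6.64, 8.33 and 6.07 in the transplants, against 7.30 and 7.88 in the others, and replicate 6 made the groups overlap. Ces1d differed by -2.06 ± 1.01 and turned on single tumours: without MMTV-Cre replicate 1 it was -4.26 and passed (adjusted p = 0.00292), as did Cidea (-1.75, adjusted p = 0.00726), and without MMTV-Cre replicate 2 the differences of Ces1d and Cidea were 0.14 and -0.20.

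Other genes of fat metabolism were counted to place the list. Over all genes 12.6%, 7.09% and 11.9% were lower and 12%, 5.32% and 7.69% higher in MMTV-Cre, Ad-Cre and p53 tumours. The rises in these lists were fewer than those shares. Of 24 other fat-cell genes measured, 16 fell in MMTV-Cre, 13 in Ad-Cre and 17 in p53 tumours, and 0 rose. Orm1, the acute-phase protein orosomucoid, differed by -5.60 ± 0.25 and Car3 by -4.77 ± 0.97 in MMTV-Cre tumours. Of 24 further genes of triglyceride and droplet handling, 15, 10 and 13 fell and 2, 1 and 1 rose in MMTV-Cre, Ad-Cre and p53 tumours. Mgll, monoacylglycerol lipase, which ends the lipase chain, differed by -3.32 ± 0.35 in MMTV-Cre tumours. Agpat2, an acyltransferase of triglyceride synthesis, differed by -2.88 ± 0.14 there. Among the genes that rose was Acsl4, an acyl-CoA synthetase of polyunsaturated fatty acids, by 1.28 ± 0.34 in MMTV-Cre and 1.73 ± 0.48 in Ad-Cre tumours (adjusted p = 0.011 and 0.0274). Its difference in p53 tumours was 1.15 ± 0.42 (adjusted p = 0.0658).

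Of 21 genes of lipogenic and sterol control, 10, 10 and 12 fell and 0 rose in MMTV-Cre, Ad-Cre and p53 tumours. Thrsp, the lipogenic protein Spot 14, differed by -5.16 ± 0.23 in MMTV-Cre tumours and Pcx, pyruvate carboxylase, by -3.90 ± 0.19. The list's median was -0.72, -0.51 and -1.03. Of 18 other regulators of fat-cell formation, 8, 4 and 7 fell and 1, 0 and 0 rose, with a median of -0.28, -0.39 and -0.17. Klf5 was the one that rose (0.72 ± 0.22 in MMTV-Cre tumours, adjusted p = 0.0254), and 1 of 18 is under the 12% of all genes that rose there. Of 14 fibroblast and adipose progenitor genes, 7, 4 and 4 fell and 0 rose.

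Among the normal samples replicate 2 was high in Ucp1, Cidea and some other brown-fat genes. Ucp1 read 11.68 there, against 6.94 to 8.80 in the other 4, and Cidea 10.46 against 7.02 to 9.19. Outside the list of 36, and chosen after their values were seen, Elovl3, a brown-fat elongase, read 10.40 against 6.58 to 7.40, and Cox7a1, a respiratory subunit of brown fat and muscle, 10.94 against 8.06 to 9.09. The mean of 10 brown-fat genes was 9.48 in that sample and 8.33 to 8.81 in the other 4. Others of those genes did not follow: Ebf2 read 9.84 there, against 10.10 to 10.41, and Prdm16 8.04, against 7.86 to 8.18. Of the fatty acid synthesis genes all but Scd1 were highest there too. Acly, Elovl6, Acaca, Acacb, Fasn and Me1 read 13.19, 13.19, 13.29, 10.98, 13.996 and 13.43. Slc2a4, Dgat1 and Gpd1 were also highest there, while Adipoq was not (13.04, against 12.54 to 13.31).

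Normal replicate 5 was the lowest of the 5 in most of the 34 genes, Adipoq, Lep, Retn, Pnpla3, Slc2a4 and Acly among them. Its median gene lay -0.28 from the mean of the normal samples, against -0.065 to 0.15 in the other normal samples. Slc2a4 read 10.10 there and 10.86 to 11.59 in the rest, and Pnpla3 10.81 against 11.64 to 12.25. Skeletal muscle markers also differed among normal samples, with a mean over 15 genes of 9.61, 9.79, 7.63, 7.65 and 8.61 in replicates 1 to 5. Of these muscle genes 10, 2 and 4 were lower in MMTV-Cre, Ad-Cre and p53 tumours than in normal tissue. Over all genes 12.6%, 7.09% and 11.9% were. The part of muscle in the levels of Slc2a4, Ppargc1a and Car3, which that tissue also expresses, was not tested.

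**Figure D5:**
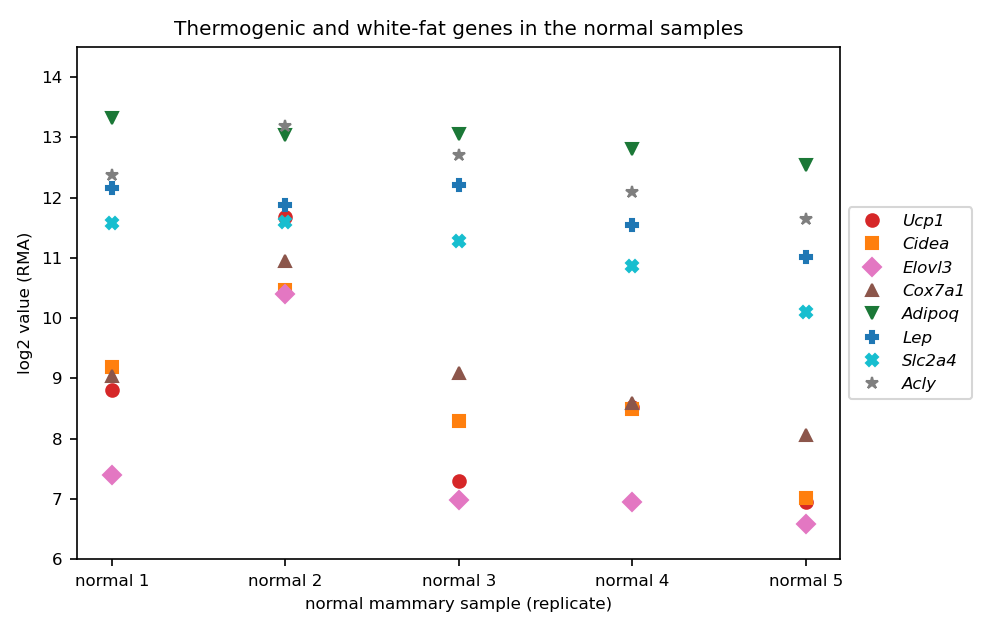
Log2 RMA values of 4 brown-fat genes (Ucp1, Cidea, Elovl3 and Cox7a1), 3 white-fat genes (Adipoq, Lep and Slc2a4) and the lipogenic gene Acly in the 5 normal samples. Replicate 2 stands high in these 4 brown-fat genes and Acly, and within the range of the others in Adipoq and Lep.

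Of the other cell types counted, 12 endothelial genes had 3, 1 and 6 lower and 0 higher in MMTV-Cre, Ad-Cre and p53 tumours, where 12.6%, 7.09% and 11.9% of all genes were lower and 12%, 5.32% and 7.69% higher. The 14 macrophage genes had 7, 3 and 10 higher and 1, 0 and 0 lower. Of 10 milk protein genes 4, 1 and 6 were lower, and of 10 brown-fat genes 6, 4 and 5. The single endothelial and milk calls in Ad-Cre tumours are near the share of all genes. Neither of 2 red-cell genes passed. Luminal genes were lower in 10 and 12 of 16 and basal genes in 6 and 7 of 12 in Ad-Cre and p53 tumours.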

How the data were processed

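RNA extracted with Trizol from 17 mouse samples was hybridised to Affymetrix Mouse Gene 1.0 ST arrays, 1 array each. The deposited values are log2 intensities for 35556 probe sets after robust multi-array averaging (RMA), made in Partek 5.6 per the submitters' processing notes. The genome build behind them is not given in the sources used here. Groups came from the source names and descriptions in the labels.

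Of the probe sets, 21789 carried 1 gene symbol, 1621 several and 12146 none. Symbols came from the platform annotation, and 21698 matched RefSeq by Entrez number. A gene was its single-symbol probe set with the highest mean, which left 19938 genes and 34 of the 36 named. Cfd and Adrb3 were not analysed here.

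Groups were compared with limma 3.58.1 in R 4.3.3 (lmFit, eBayes), with Benjamini-Hochberg adjustment over all genes and a threshold of 0.05. Tumour against normal used all 17 arrays in 4 groups. MMTV-Cre against p53 and Ad-Cre against MMTV-Cre used the 12 tumours, and transplanted against other used the 7 MMTV-Cre tumours. The number of arrays limits the precision. The fit was tested on simulated data.

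A value was counted as residual signal above its array's median over all probe sets, and as not shown above background at or below the 25th percentile. Alternatives were other scaling, variance settings, array weights, a filter on low genes, other bounds, other groupings and leaving out each array.

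Every member was described. Outside the list of 36, the text names the gene with the largest fall or rise in a list, and genes chosen after their values were seen. The members and all gene lists were chosen with earlier results of these data known.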

Additional observations from a re-analysis of the deposited data

Results flagged for a closer look

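In the 7 MMTV-Cre Rb/p53 tumours, 5 genes of the list had 1 tumour far from the others by Dixon's test of the gap to the nearest sample. They were 5 of 68 sets of values tested, all 5 in these tumours and 0 in normal tissue, and chance gives about 1 in 20. Cidea read 7.49 in replicate 2, where the next highest tumour read 5.95. Ces1d read 10.55 in replicate 2, where the next highest read 6.75. Dgat1 read 10.6 in replicate 4, against 9.97 in the next, and Dgat2 was lowest in that same tumour, at 7.72 against 8.59. Fasn read 11.87 in replicate 5, against 10.97 in the next. No test was made of what these tumours have in common.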

How the results depend on the processing

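No tumour-against-normal difference of the 34 genes changed sign under any alternative run. Of the 34 genes lower in MMTV-Cre tumours, 30 passed under all 28 alternatives, and leaving out arrays gave 34 to 34. The other 4 (Cidea, Scd1, Me1 and Ucp1) failed with the 2 MMTV-Cre tumours not labelled as transplants alone, where 30 passed. Of the 31 lower in Ad-Cre tumours, 25 passed under all 26 alternatives; leaving out arrays gave 25 (without Ad-Cre replicate 1) to 32, and 29 without Ad-Cre replicate 2. All 33 lower in p53 tumours passed under all 26 alternatives, and leaving out arrays gave 33 to 34. With low genes left out Cidea was not fitted. For MMTV-Cre against p53 tumours the count of higher genes was 1 (Scd1) with all 17 arrays, 1 with p53 replicate 3 moved, and 0 to 1 with arrays left out. For transplanted against other tumours the count of lower genes was 0 to 2 with arrays left out. The difference of Adipoq, Rb/p53 MMTV-Cre against p53, ranged over left-out arrays from -0.035 (without MMTV-Cre replicate 6; -0.02 without p53 replicate 1) to 0.578 (without p53 replicate 3). That of Ces1d between transplanted and other tumours ranged from -4.26 to 0.145 (without MMTV-Cre replicates 1 and 2). With the 25th percentile as the bound, residual signal was counted in 29, 32, 28, 26, 30, 32 and 27 genes in MMTV-Cre replicates 1 to 7, 28 and 26 in Ad-Cre and 27, 27 and 30 in p53 tumours. With the 60th percentile it was 15, 20, 15, 12, 13, 19 and 13, 14 and 13, and 11, 11 and 17. With cyclic loess and the median as the bound, MMTV-Cre replicate 1 had 20 and p53 replicate 2 had 22, against 21 and 18 as reported. Over all genes, called numbers ranged with the setting from 1601 to 7207 for MMTV-Cre against normal (4898 as reported), 1196 to 4422 for Ad-Cre (2475), 1609 to 5400 for p53 (3902), 0 to 780 for MMTV-Cre against p53 (1), 1 to 30 for Ad-Cre against MMTV-Cre (1) and 0 to 158 for transplanted against other (5). The cause of these shifts was not tested. No paired analysis was possible because the labels give no animal or identifier shared between the groups compared. Low signal limits Lep, Cidea, Ces1d, Ucp1, Gys2, Adipoq and Cyp2e1, whose tumour values lie near or under the 25th percentile. Ppargc1a was at or under it in 3 tumours and Aqp7 in 1.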

Other observations

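Genes outside the list, chosen after their values were seen, gave further values. Plin2, the perilipin found on droplets of many cell types, read 11.24 to 12.34 in MMTV-Cre tumours (median 11.88), 11.94 and 12.23 in Ad-Cre tumours, 12.72, 12.16 and 12.59 in p53 tumours, and 12.68, 12.71, 12.70, 12.56 and 12.19 in normal tissue. By limma Plin2 was lower in MMTV-Cre tumours by a small amount (-0.77 ± 0.19, adjusted p = 0.00692), and its difference was -0.08 ± 0.23 in p53 tumours (adjusted p = 0.828). The fat-cell perilipins Plin1 and Plin4 differed by -4.76 and -4.29 in MMTV-Cre tumours.

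Nnat, which encodes neuronatin, a protein of fat and nerve cells, read 10.03 in p53 replicate 3, against 7.10 and 7.43 in the other p53 tumours, 7.002 to 8.39 in MMTV-Cre tumours, 7.19 and 7.71 in Ad-Cre tumours and 11.44 to 12.79 in normal tissue. Acsl4 read 10.59 to 12.84 in MMTV-Cre tumours, 11.44 and 12.12 in Ad-Cre tumours and 11.09 to 11.40 in p53 tumours, all above the 5 normal samples (9.78 to 10.20).

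The milk genes Wap and Glycam1 were lower in transplanted than in other MMTV-Cre tumours. Wap read 7.35 to 7.72 in the transplants, against 11.52 and 12.80 in the others (limma adjusted p = 0.00651), and Glycam1 6.29 to 6.93 against 11.33 and 12.40 (adjusted p = 0.00584). The nulliparous and the parous tumour were both high in these genes.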
